A study of Drosophila melanogaster with 4 samples.

Results

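Of the 7909 exex-GFP peaks that the authors kept after an irreproducible discovery rate (IDR) filter on dm6, 1900 were single-summit peaks inside introns, 1001 to 10000 bp from the nearest transcription start site (TSS). They made up 24.0% of the list (95% Wilson interval 23.1% to 25%) and 28.6% of the 6644 peaks whose called region holds 1 summit. A peak was included when its region had 1 line in the list and its summit lay within the body of a protein-coding gene, in no exon of any protein-coding gene and within that distance range. Within the IDR list, which was itself filtered on signal and its agreement between replicates, location and the single summit chose the peaks. The study applied chromatin immunoprecipitation with sequencing (ChIP-seq), using an anti-GFP antibody, to whole Drosophila melanogaster embryos aged 6 to 24 h. The embryos came from 1 transgenic line that carries exex fused at its C-terminus to GFP, and the 4 libraries, labelled as biological replicates, form a single group. Chromatin was sonicated to 200 to 800 bp. The place and copy number of the transgene, and whether endogenous exex was still present, were not given by the sources used here. Whole embryos mix all cell types, so a peak cannot be assigned to a cell type, and few cells with strong binding cannot be told apart from many with weak binding. A possible control experiment was not analysed here.

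Exex is the fly member of the HB9 family, homeodomain proteins that specify motor neurons, and can act as a transcriptional repressor. Homeodomains of this kind bind short sequences with a TAAT core, of which TAATTA is a palindromic form. GATA factors, a family of zinc-finger proteins that in flies includes serpent, pannier and GATAe, bind sequences with a GATA core and act in fat body, blood, gut and dorsal ectoderm. Introns of Drosophila genes hold many enhancers, often in long introns near the 5′ end of the gene.

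The sequences under some of the strongest intronic peaks hold TAATTA or else CTTATC, 1 holds both and 1 of those printed holds neither. From the 7 strongest peaks 6 are printed, together with the strongest peak in a motor neuron factor gene, Lim3, as the plus strand of the RefSeq Release 6 genome (dm6), 5′ to 3′. Each covers up to 100 bp on both sides of the summit, stopping where an exon begins. Capitals mark TAATTA and CTTATC, the latter also as its complement GATAAG.
CG11050 chr2L:6612641-6612780: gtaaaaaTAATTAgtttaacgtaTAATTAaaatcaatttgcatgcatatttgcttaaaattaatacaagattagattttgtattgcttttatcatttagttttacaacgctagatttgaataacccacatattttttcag
ush chr2L:480973-481173: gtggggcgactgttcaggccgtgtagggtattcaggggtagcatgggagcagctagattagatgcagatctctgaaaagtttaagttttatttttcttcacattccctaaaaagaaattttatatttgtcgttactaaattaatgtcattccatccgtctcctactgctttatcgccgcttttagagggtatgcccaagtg
ZnT63C chr3L:3306601-3306801: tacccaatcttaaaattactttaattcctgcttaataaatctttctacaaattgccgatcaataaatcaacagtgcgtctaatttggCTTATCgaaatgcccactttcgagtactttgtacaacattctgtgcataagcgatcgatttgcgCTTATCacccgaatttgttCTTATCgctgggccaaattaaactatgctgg
nub chr2L:12593522-12593624: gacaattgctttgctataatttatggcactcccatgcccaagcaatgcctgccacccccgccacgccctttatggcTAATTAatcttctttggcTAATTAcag
CG17834 chr2L:8534236-8534436: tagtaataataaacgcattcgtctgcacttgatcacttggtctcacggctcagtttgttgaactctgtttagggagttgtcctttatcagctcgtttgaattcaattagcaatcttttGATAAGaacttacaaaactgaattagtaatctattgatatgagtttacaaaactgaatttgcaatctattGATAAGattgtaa
cwo chr3R:10394299-10394499: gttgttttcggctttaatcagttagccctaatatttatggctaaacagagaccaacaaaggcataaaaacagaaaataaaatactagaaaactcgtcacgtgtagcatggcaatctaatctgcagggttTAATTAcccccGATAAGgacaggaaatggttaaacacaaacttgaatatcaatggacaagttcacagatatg
Lim3 chr2L:19097529-19097729: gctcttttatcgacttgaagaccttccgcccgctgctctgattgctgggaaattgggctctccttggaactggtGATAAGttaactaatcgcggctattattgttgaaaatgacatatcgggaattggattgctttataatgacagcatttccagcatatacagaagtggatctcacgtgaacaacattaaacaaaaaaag
The stretch from CG11050 fills an intron of 140 bp, and TAATTA occurs in it 2 times. The stretch from nub, which encodes a POU-homeodomain factor, ends 2 bp past the summit at the 3′ end of the first intron and also holds TAATTA 2 times. ZnT63C, a zinc transporter gene, has CTTATC 3 times, and CG17834 has its complement 2 times. The stretch from cwo, which encodes a repressor of the circadian clock, holds TAATTA and GATAAG 1 time each. The peak in ush, the gene of a cofactor of GATA proteins, has neither 6 bp sequence.

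All 20 strongest intronic peaks recurred among the highest peaks of every replicate. They lay in 20 different genes and ranked 20 to 84 in the IDR list. That list was derived from these same replicates, so such recurrence is not an independent check. Each replicate list holds 30000 peaks whatever its quality, so replicates were represented by their 7909 highest-signal peaks, as many as the IDR list has. The authors' signal value is on a scale of its own in each list, so only ranks are set side by side. The strongest peak, in the second intron of CG11050 on chr2L:6612218-6612928, ranked 27, 23, 49 and 6 in replicates 1 to 4. The peak in the first intron of ush, at chr2L:480886-481360, ranked 32, 11, 22 and 109. Its nearest TSS, 1385 bp away, is that of cbt, which encodes a zinc-finger factor. The lowest rank that any of the 20 had in a replicate was 393, in replicate 4, at CG4928.

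The hosts of these 20 peaks encode transcription factors, membrane transporters, enzymes and muscle and signalling proteins. The factor genes, beside ush, nub and cwo, were HHEX, a homeobox gene, Hr96, a nuclear receptor of lipid and xenobiotic metabolism, and Lim3, a LIM-homeodomain factor of motor neurons. The Lim3 peak, in the second intron at chr2L:19097173-19097952, ranked 53 in the IDR list and 53, 82, 44 and 162 in the replicates. The nearest TSS to it, 4415 bp away, is shared by CG17344 and CG43731 and is not that of Lim3. The Hr96 peak lay in intron 3 at chr3R:25027611-25028556 and ranked 47, 108, 74 and 23. Transporter genes among the hosts were ZnT63C, Mct1, a monocarboxylate transporter gene, and Vha100-5, which encodes a subunit of the vacuolar proton pump. Baldspot, a fatty acid elongase gene, Zasp52, a gene of the muscle Z-disc, Sarm, an axon degeneration gene, and px, a wing vein gene, were also hosts. Further hosts were CG9864, CG17834, CG4928, CG43367 and CG10939. Of the 20 summits, 10 lay in a first intron and 12 were nearest to a TSS of the host. CTTATC was found within 100 bp of 13 summits and TAATTA within 100 bp of 5, with 3 summits holding both and 5 neither.

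The exex gene itself held 1 of the 1900 peaks. It lay in the first of 2 introns, at chr3L:7949770-7950177, with its summit 1790 bp downstream of the exex TSS, and ranked 1210 in the IDR list. Its ranks were 1061, 1438, 1659 and 1143 in replicates 1 to 4, so all replicates placed it well inside their highest peaks. Neither CTTATC nor TAATTA occurred within 100 bp of that summit. The other IDR summit in the exex body, 101 bp from a TSS, belongs to a region with several summits and ranked 7292.

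Intronic peaks lay in first introns more often than the available intron sequence. Introns were numbered in the transcript of longest span of the innermost host gene. First introns held 956 summits, or 50.3% (48.1% to 52.6%), second introns held 578, or 30.4%, and later introns held 366, or 19.3%. Taking the same rule on each replicate's highest peaks, the first-intron share was 50.7%, 48.8%, 49.8% and 51.6% (mean 50.2% ± 1.19, SD, n = 4). The bases that satisfy the location rule, called eligible here, numbered 29240753, and 36.6% of them lay in first introns. All 4 replicates exceeded that value, by 13.6 percentage points on average. The exact two-sided sign-flip permutation test over 4 replicates gave p = 0.125, the smallest it can give, and 0.180 after Benjamini-Hochberg adjustment over 23 measures, so the design cannot reach 0.05. Per megabase of eligible sequence there were 89.3 peaks in first introns, 69.2 in second, 46.7 in intron 3, 34.7 in intron 4, 43.9 in intron 5 and 22.9 in introns 6 or later.

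**Figure D1:**
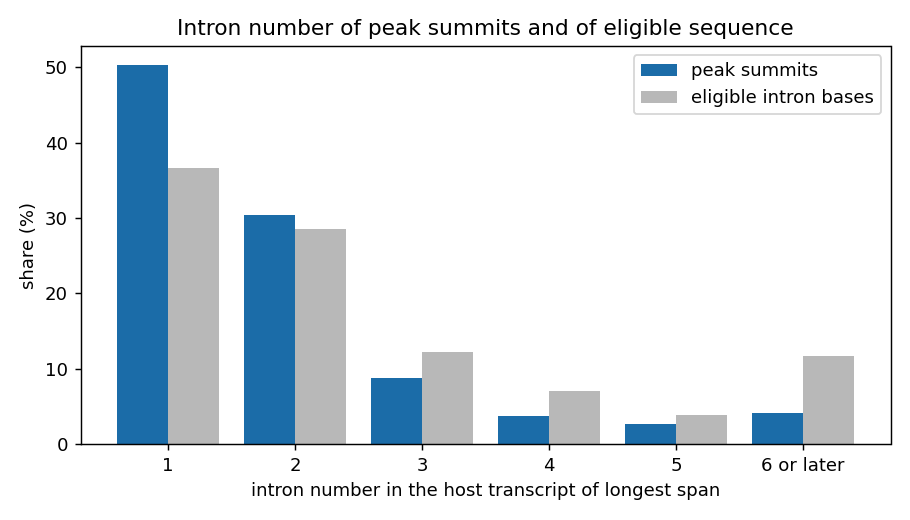
Share in percent (vertical axis) of the 1900 peak summits (blue) and of eligible intron bases (grey) by the number of the intron in the host transcript of longest span. First introns hold 50.3% of summits and 36.6% of bases, and introns 6 or later hold 4.11% and 11.7%.

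First introns are also where sequence close to a TSS lies, so the comparison was repeated within distance ranges, a choice made after seeing the data. At 1001 to 2000 bp, 59.2% of 677 summits lay in first introns against 46.3% of eligible bases. At 2001 to 5000 bp the values were 48.6% of 797 summits and 37.5%, and at 5001 to 10000 bp they were 39.4% of 426 summits and 29.9%. In the nearest range the 4 replicates gave 58.0%, 57.8%, 58.6% and 62.5%, and in the farthest 39.5%, 38.4%, 38.4% and 38.4%. Every replicate value was above the eligible share of its range. Counting a summit that lies in the first intron of any host transcript, the share was 68.8% against 51.9% of bases.

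Within the distance range, peaks crowded towards the TSS. The median distance was 2637.5 bp in the IDR list and 2626, 2620, 2604 and 2524 bp in the replicates, against 3841 bp for eligible bases (shorter in 4 of 4 replicates, exact sign-flip permutation p = 0.125, adjusted 0.180). Within 2000 bp lay 35.6% of summits and 21.8% of bases. From 1001 to 2000 bp there were 106.1 peaks per megabase, from 4001 to 5000 bp 47.6 and from 9001 to 10000 bp 25.2. At the lower limit, 45 peaks lay at 1001 to 1050 bp (median signal 447.6), and 44 lay at 951 to 1000 bp (median signal 415.0). At the upper limit, 10 peaks lay in the last 200 bp inside (median signal 554.0), and 8 in the 200 bp beyond it (median signal 400.2).

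**Figure D2:**
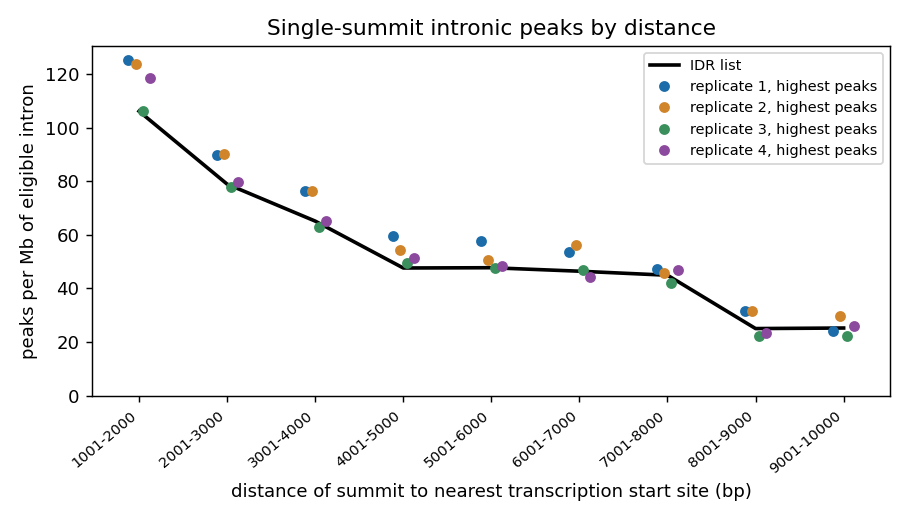
Single-summit intronic peaks per megabase of eligible intron (vertical axis) by distance of the summit to the nearest TSS in bp (horizontal axis), for the IDR list (line) and the 7909 highest peaks of each replicate (points). The line falls from 106.1 in the nearest bin to 25.2 in the farthest, and each replicate is higher in the nearest bin than in the farthest.

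The TSS nearest to a summit was one of the host's own for 1564 peaks (82.3%, against 68.7% of eligible bases). Of these, 1253 lay downstream of it and 311 lay upstream of a later start of the same gene. The downstream share, 80.1%, was close to the 79.9% found for eligible bases nearest to a host TSS. Another gene's TSS was nearest for 336 peaks, as at ush and Lim3. The host transcript began more than 10000 bp away for 558 peaks. Peaks lay in shorter introns than eligible bases, with a median intron length of 8353.5 bp (8162, 8666, 8153 and 7949 bp in the replicates) against 10935 bp. Inside the intron they showed little preference for either end: when introns were cut into 3 equal sections, the 5′ section held 34.8% of summits, the middle 32.6% and the 3′ section 32.6%, against 35.4%, 32.9% and 31.7% of bases. A last intron held 102 summits and an only intron 70.

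The large chromosome arms carried 60.4 to 72.8 peaks per megabase of eligible intron, and chromosome 4 stood below them. It held 1 peak in 402322 eligible bases, 2.49 per megabase, and the replicates placed 2, 1, 1 and 5 peaks there. Annotated transposable elements contained 2 summits (0.105%) but 5.62% of eligible bases, and the replicate shares were 0.0901%, 0.183%, 0.0533% and 0.0501%. How well reads align in repeats was not tested. An exon of a non-coding gene overlapped 30 summits (1.58%, against 1.22% of eligible bases). More than 1 protein-coding gene contained 103 summits (5.42%, against 4.63% of eligible bases). Median GC within 100 bp of the summit was 38.8%, against 40.3% over eligible positions, and the replicates fell on both sides of that value, at 39.8%, 37.8%, 38.3% and 40.8%.

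CTTATC was the 6 bp sequence that set intronic summits most apart from intron sequence. It occurred on either strand within 100 bp of 792 summits, 41.7% (39.5% to 43.9%), while the same window around eligible positions held it in 8.80%. The replicates gave 44.7%, 39.2%, 41.2% and 40.5% (mean 41.4% ± 2.32, SD, n = 4), all far above that share. The exact sign-flip permutation test over replicates again gave its smallest value, p = 0.125 (adjusted 0.180). In a scan of all 2080 sequences of 6 bp, counted with their complements, CTTATC had the largest difference in the IDR list and in each replicate. The next 4 were TGATAA (41.4% against 13.4%), AGATAA (31.4% against 12%), CTGATA (24.3% against 7.13%) and ATAAGA (27.0% against 10.8%), which all overlap the GATAAG form of CTTATC. At the other end, AATGCA was found at 10.9% of summits and 19.9% of eligible positions. Such matches describe the sequence and do not show which protein was bound.

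TAATTA, the homeodomain-type sequence, was found at 380 summits, 20% (18.3% to 21.9%), against 14.8% of eligible positions. The replicates gave 18.6%, 20.4%, 19.9% and 16.1% (mean 18.7% ± 1.94, SD, n = 4), each above the eligible share, and replicate 4 was the nearest to it (exact sign-flip permutation p = 0.125, adjusted 0.180). Its difference ranked 46 of 2080 in the IDR list and 86, 49, 57 and 411 in the replicates. Both 6 bp sequences occurred together at 150 summits, CTTATC alone at 642, TAATTA alone at 230 and neither at 878. TAATTA was found at 18.9% of summits with CTTATC and at 20.8% of those without it.

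Other short sequences were close to the intron background. CAGCTG, a form of the E-box bound by basic helix-loop-helix factors, was at 7% of summits and 7.50% of eligible positions. CAGGTA, the core bound by Zelda in early embryos, was at 3.63% against 4.10%. GAGAGA, the type bound by GAGA factor, was at 8.47% against 7.44%, and above it in 4 of 4 replicates (9.15%, 9.05%, 7.94% and 8.97%). TATCGATA, the DNA replication-related element of promoters, was at 0.474% against 0.414%, where core promoter peaks (within 200 bp of a TSS) had it in 8.17%. Against those core promoter peaks CTTATC was higher at intronic summits by 17.2 percentage points (17.3, 15.0, 17.9 and 17.2 in the replicates). Against single-summit intergenic peaks in the same distance range it was higher by 8.15 points (11.0, 8.80, 9.99 and 11.8). Both differences had the same sign in 4 of 4 replicates, and the exact sign-flip permutation test gave p = 0.125 for each, 0.250 when adjusted over 12 comparisons. TAATTA differed from the 2 classes by −0.303 and −1.60 points, with replicate values on both sides of 0. CTTATC was not particular to intronic peaks: exonic peaks of the same distance range had it in 44.6% and regions with several summits in 42.5%. It was at 36.9% of single-summit peaks over 200 to 1000 bp from a TSS and 31.0% of those over 10 kb away. Over all IDR peaks the share was 35.4%, and these further differences were not tested.

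**Figure D3:**
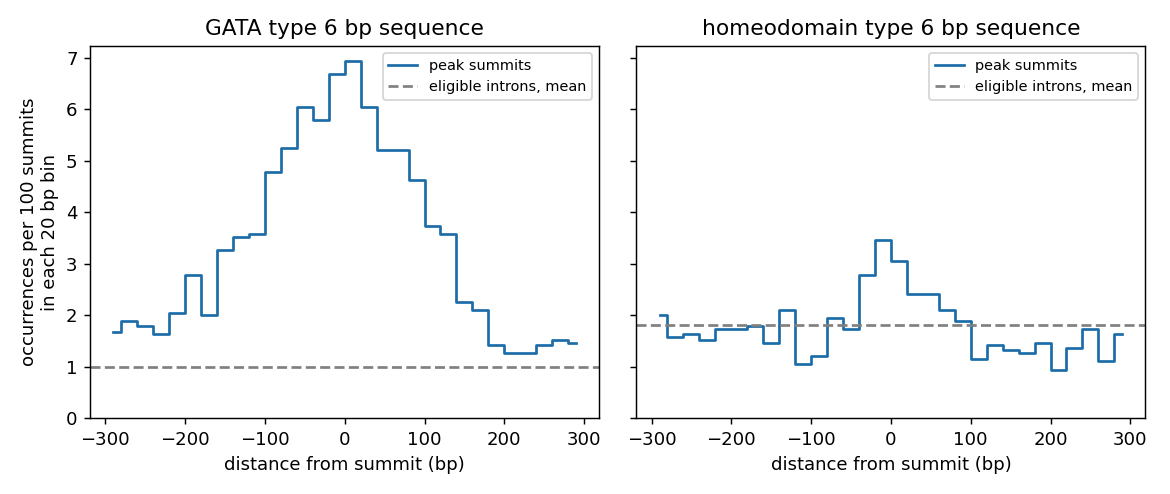
Occurrences per 100 summits in 20 bp bins (vertical axis) against distance from the summit in bp (horizontal axis) for the 1900 intronic peaks, with the mean over eligible introns dashed. The GATA-type sequence CTTATC (left) reaches 6.95 just right of the summit against a mean of 0.998, and the homeodomain-type TAATTA (right) reaches 3.47 just left of it against 1.82.

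Both 6 bp sequences were concentrated at the summit and fell off with distance. In windows of equal size centred 1000 bp away, CTTATC was found for 10.8% of peaks and TAATTA for 13.2%. CTTATC was in the summit window only for 698 peaks and in the flanking window only for 112, and for TAATTA the counts were 330 and 201. When the peaks were split by signal into 4 groups of 475, CTTATC was found at 53.3%, 46.1%, 38.3% and 29.1% from strongest to weakest. TAATTA varied less, at 23.2%, 20.4%, 17.7% and 18.7%. CTTATC was at 44.5% of summits 1001 to 2000 bp from a TSS and at 35.7% of those beyond 5000 bp. It was about as frequent in first introns (41.9%) as in second introns (40.5%).

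Most of the intronic peaks were found among the highest peaks of all replicates, and replicate 4 missed the most. At least 1 bp of overlap was seen for 90.8%, 90.1%, 89.7% and 72.3% in replicates 1 to 4 (mean 85.7% ± 8.95, SD, n = 4). The first 3 replicates stood close together and replicate 4 stood apart. In all 4 replicates were 1163 peaks, 61.2% (59.0% to 63.4%), beside 65.3% of all IDR peaks. A further 457 were in 3 replicates, 214 in 2, 64 in 1 and 2 in none, and replicate 4 was the missing library for 309 of the 457. In the complete lists of 30000 peaks, 99.4%, 99.3%, 99.2% and 95.8% were found, and 93.8% were in all 4 complete lists, beside 93.1% of all IDR peaks. The IDR list was derived from these same replicate lists, so support describes the spread between libraries and is not an independent check. Peaks with q under 0.01 numbered 12935, 11893, 13846 and 6947 in the replicates. Replicate 4 thus had fewer than the 7909 highest peaks kept, so its kept peaks include some without q under 0.01. Replicates 1 to 3 each had more than 7909. Every share and host count given for the highest peaks of replicate 4 carries this limit. The part of this difference in the support of replicate 4 was not tested.

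Support fell with signal, a decline that the cut on replicate peaks builds in at least partly. Support was counted among the 7909 highest-signal peaks of each replicate, and the IDR ranks derive from these same replicates. The weakest group, ranks 5989 to 7906, therefore lies close to the cut. How much of the decline goes beyond the cut was not tested, and 93.8% of the intronic peaks were in all 4 complete lists. In the strongest of the 4 signal groups 97.3% of peaks were in all 4 replicates, then 85.5%, 50.1% and, in the weakest group, 12%. Replicate 4 fell first, overlapping 98.5%, 88.4%, 61.9% and 40.4% of the groups, where replicate 1 overlapped 99.6%, 98.3%, 93.1% and 72.4%. Across the peaks listed in both libraries, the Spearman correlation of ranks was 0.753 to 0.842 between replicates 1, 2 and 3 (1871 to 1877 peaks) and 0.646 to 0.688 with replicate 4 (1805 to 1809 peaks). These values are descriptions over peaks, which share their libraries and signal scale. Among the 3955 strongest peaks of the IDR list lay 48.3% of the intronic peaks, beside 45.9% of single-summit peaks. Intergenic peaks of the same distance range were in all 4 replicates in 57.6% of cases and core promoter peaks in 55.8%. Exonic peaks of that range were in all 4 in 57.1%, and single-summit peaks over 10 kb away in 49.2%. Single-summit peaks over 200 to 1000 bp from a TSS stood slightly above the intronic peaks, at 62.6%, and regions with several summits at 98.9%. These differences were not tested.

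**Figure D4:**
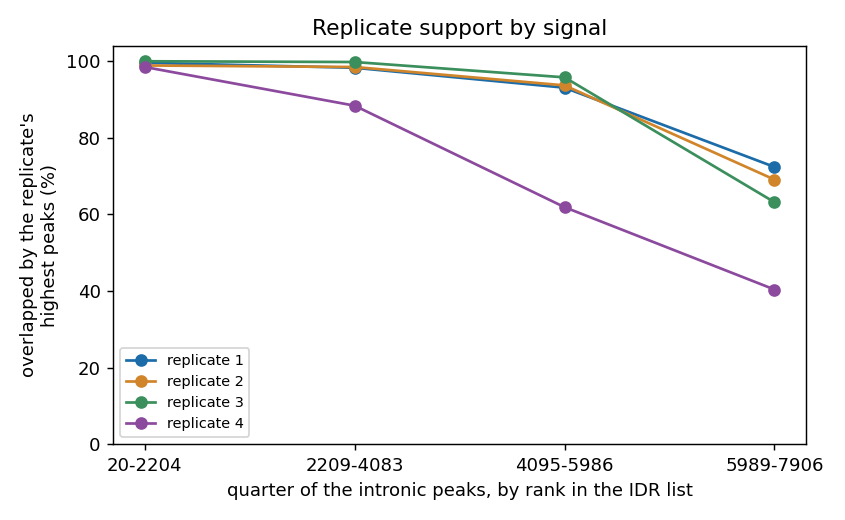
Percent of intronic peaks that meet 1 of the 7909 strongest peaks in each replicate (vertical axis), for 4 groups of 475 peaks by rank in the IDR list (horizontal axis). Replicate 4 drops to 61.9% in the group of ranks 4095 to 5986 and 40.4% in the weakest, below the other replicates, which start at 98.9% or more.

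The 1900 peaks had 998 host genes, 14.5% of the 6904 genes with an eligible intron base. A single peak was found in 573 hosts, 425 hosts had 2 or more, together holding 1327 peaks, and 70 hosts had 5 or more. Hosts have more room: their median eligible length was 7260 bp, against 404 bp for genes without a peak. Introns that held 2 or more peaks numbered 411, with 1142 peaks in all, and whether this exceeds what intron length gives was not tested. The median gap between neighbours in an intron was 1609 bp, and 234 of 731 neighbouring pairs were within 1000 bp.

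The hosts with the most peaks were tara and Eip75B, followed by bun and InR. The gene tara, which encodes a transcriptional co-regulator, held 12, all in its first intron, and its replicate counts were 13, 11, 10 and 14. Eip75B, an ecdysone-induced nuclear receptor gene, also held 12 (14, 15, 14 and 14), none of them in a first intron. None of the Eip75B summits had CTTATC or TAATTA within 100 bp, whereas 7 of the 11 in bun, a leucine-zipper growth regulator gene, had CTTATC. The bun counts in the replicates were 11, 14, 12 and 13. InR, the insulin receptor gene, held 10 (11, 9, 8 and 8), 5 with CTTATC and 4 with TAATTA. Next came 4 hosts with 8 peaks each, taken among 7 such hosts by their strongest peak. They were shn, a zinc-finger gene of BMP signalling (12, 16, 8 and 19), CHES-1-like, a forkhead gene (9, 9, 9 and 12), mtd (10, 7, 8 and 5) and shot, which encodes a cytoskeletal linker (6, 5, 7 and 8). The 8 peaks of CHES-1-like all lay in its first intron, and shn varied most between replicates. Peaks among the highest of all 4 replicates numbered 6 of 12 in tara, 7 of 12 in Eip75B, 10 of 11 in bun and 5 of 10 in InR. Of the 8 peaks in each of the others, 7 were so supported in CHES-1-like, 5 in shn, 5 in shot and 3 in mtd. These counts depend on which starts are annotated: with the start of each gene as its only TSS, Eip75B held 0, tara 4, InR 5, shn 4 and shot 4 peaks in the distance range. Beyond 2000 bp from a TSS, CHES-1-like held 4, shn 5 and mtd 5.

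Among the listed gene groups, fat body and metabolic genes had the most peaks for their intron length. The lists were chosen with earlier results of these data known. They were not matched for distance from a TSS, with which peak density fell. Of 17 fat body and metabolic genes with eligible sequence, 10 were hosts (12, 12, 9 and 12 in the replicates), 58.8% beside 14.5% of all genes. These held 34 peaks or 280.2 per megabase, beside 65.0 over all genes. The median eligible length in this list was 2292 bp, against 614 bp over all genes. The strongest peaks of the list were in Hnf4, a nuclear receptor gene of lipid catabolism (IDR rank 158, replicates 158, 221, 145 and 163), bmm, a triglyceride lipase gene (rank 817), and SNF4Agamma, a subunit gene of AMP-activated kinase (rank 1110). Ecdysone response genes were hosts in 9 of 14 cases (9, 8, 9 and 6), 64.3%, with 35 peaks or 105.2 per megabase. Their median eligible length was 23299 bp. They included ftz-f1 (rank 493), Eip75B (rank 1367) and Hr4 (rank 1925), all nuclear receptor genes. CTTATC was near 3 of those 35 peaks and 11 of the 34 in the metabolic list, beside 41.7% of all the intronic peaks, and these counts were not tested.

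Motor neuron factor genes were hosts in 5 of 7 cases (5, 5, 3 and 4 in the replicates), 71.4% beside 14.5% of all genes. They held 7 peaks or 93.3 per megabase, beside 65.0 over all genes. Their median eligible length was 8504 bp, against 614 bp over all genes, so the host shares are not like for like. Beside Lim3 and exex the strongest was in zfh1, a zinc-finger homeodomain factor gene, at rank 3280. GATA factor and gut regulator genes were hosts in 5 of 10 cases (6, 6, 4 and 6), with 14 peaks or 131.5 per megabase. After ush came cad, the caudal homeobox gene of the hindgut (rank 1681), and GATAe, an endoderm GATA factor gene (rank 2542). Both of these peaks lay in first introns and had CTTATC. Signalling genes of the EGF receptor, Notch and BMP pathways were hosts in 8 of 24 cases (10, 8, 9 and 7), at 107.6 per megabase, with shn (rank 144), tkv, a BMP receptor gene (rank 661), and mam, a Notch co-activator gene (rank 1336), foremost. Muscle and mesoderm genes were hosts in 7 of 20 cases (8, 7, 7 and 8), at 61.5 per megabase, led by Zasp52 (rank 58), Mef2 (rank 803) and twi (rank 1289), the last pair being myogenic factor genes. Glial genes, with a median eligible length of 1559 bp, held 7 peaks or 129.9 per megabase. They were hosts in 2 of 10 cases, with 2 hosts in each replicate. In the IDR list these were pnt, an ETS factor gene (rank 253), and loco, which encodes a regulator of G-protein signalling (rank 3909).

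Among the neuronal lists, axon guidance genes were hosts in 8 of 27 cases (9, 11, 9 and 7), 29.6% beside 14.5% of all genes, at 53.2 per megabase beside 65.0, with Sema5c (rank 378), the Slit gene sli (rank 1122) and the Netrin receptor gene fra (rank 4018) foremost. Cell surface recognition genes were hosts in 6 of 44 cases (7, 6, 6 and 5), 13.6%, at 11.4 per megabase, led by caps, a leucine-rich repeat gene (rank 2248), fra, which is in both lists, and Fas3, an adhesion gene (rank 4259). Voltage-gated ion channel genes were hosts in 2 of 16 cases (1, 4, 2 and 1), 12.5%, at 7.11 per megabase, in the potassium channel genes Elk (rank 3703) and Sh (rank 6848). The Sh peak was among the highest peaks of only 2 replicates (ranks 9193, 5748, 7175 and 8315). Another gene's TSS was nearest to both summits. Vesicle release genes were hosts in 1 of 13 cases, Csp (rank 4305), which encodes a chaperone of synaptic vesicles, and each replicate also had 1 host. The 10 nicotinic receptor subunit genes held no such peak in any replicate. The 8 Hox genes held none in the IDR list, although their median eligible length was 12636 bp, and replicates 2 and 4 had 1 host each. These counts are set beside 14.5% of all genes with eligible sequence and were not tested. The median eligible length over all those genes was 614 bp, against 8906 to 14749 bp in the neuronal lists. Host shares are therefore not like for like.

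**Figure D5:**
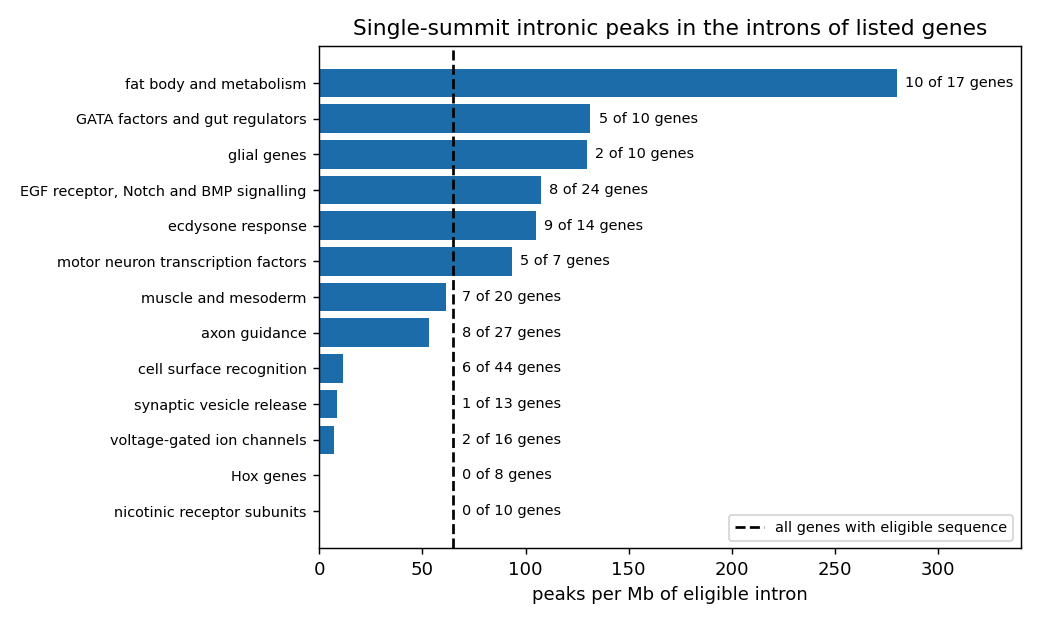
Single-summit intronic peaks per megabase of eligible intron (horizontal axis) in 13 gene lists (bars), with the number of hosts among genes with eligible sequence written beside each bar and the value over all genes, 65.0, dashed. Fat body and metabolic genes reach 280.2, and the cell surface, vesicle, channel, Hox and nicotinic receptor lists lie at 11.4 or below.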

How the data were processed

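Peak lists in narrowPeak format on dm6 were deposited for each of the 4 replicates, for the pooled replicates and after the IDR filter, which was derived from the replicate and pooled lists, per the deposited file lists. The aligner, peak caller, IDR threshold and read depth were not given by the sources at hand. The authors' signal value was treated as a score and used to rank peaks within a list. The deposited q-values are on a −log10 scale and are shared by all IDR peaks, so they served only to count replicate peaks with q under 0.01. The summit is the deposited start plus the deposited summit offset. No 2 replicates shared a line with equal position and signal.

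The gene models, with 13968 protein-coding genes and 19275 TSS positions, are those of Ensembl release 115 (BDGP 6.54), and sequence from the RefSeq Release 6 genome. Positions, introns and sequence matches on both strands were computed with Python 3.11.15, numpy 2.4.6, pandas 2.3.3 and scipy 1.17.1, and checked on positions with known answers. Intervals are 95% Wilson intervals and cover counting error only. Comparisons over replicates used the exact two-sided sign-flip permutation test with Benjamini-Hochberg adjustment. The named genes are exex, hosts of the 20 strongest peaks, the 8 hosts with most peaks and up to 3 hosts per list, of 13 lists. 1 host among those of the 20 strongest peaks is not reported here. The symbols Star and Hr46 were not matched. The peaks and the lists were chosen with earlier results of these data known. Alternatives covered the location rule, overlap, window, control sequence and replicates.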

Additional observations from a re-analysis of the deposited data

Results flagged for a closer look

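In 6 of 36 measures on the intronic peaks, 1 replicate lay far from the other 3 relative to their spread, which chance gives in about 1 of 20 groups of this size. Several measures count the same summits or the same overlaps and are not independent. The number flagged therefore cannot show an excess over chance. Replicate 4 had 72.3% of the IDR intronic peaks among its highest peaks (90.8%, 90.1% and 89.7% in the others) and 95.8% in its complete list (99.4%, 99.3% and 99.2%). The location measures below also set replicate 4 apart, though by small amounts. First or second introns held 81.0% of its intronic summits (80.2% in each other replicate). Within 2000 bp of a TSS lay 37.9% (36.1% in each), and over 5000 bp away lay 21.3% (21.9% in each). GAGAGA was near 7.94% of the intronic summits of replicate 3 (9.15%, 9.05% and 8.97% in the others).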

How the results depend on the processing

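No paired analysis was possible because all replicates belong to 1 group. Requiring a distance over 2000 bp left 1223 of 1900 peaks, by construction. Keeping only peaks among the highest of the other 3 replicates left 1199 to 1472. Mean support of 85.7% became 68.2% with 50% reciprocal overlap, 98.4% in the complete lists and 98.0% for intronic peaks among the 3955 strongest. When ranked among single-summit peaks alone, 51.9% of intronic peaks were above the median, against 48.3% in the whole list. With a window of 50 bp, TAATTA differed from core promoter peaks by 0.183 percentage points, against −0.303 with 100 bp; the cause was not tested. The shares of first introns and CTTATC and the TAATTA difference from eligible positions kept their direction under all alternatives run, including eligible bases outside transposable elements, where CTTATC was higher by 32.9 and TAATTA by 4.96 points. That control, the distance ranges, the 50 bp window for other peak classes and host counts were chosen after seeing the data. In the single hosts, leaving out 1 replicate by that rule lowered counts over 1.5 times, at the lowest to 6 in tara, 7 in Eip75B, 5 in InR, 5 in shn, 3 in mtd and 5 in shot. Read depth is unknown, and 4 replicates cannot give p under 0.125.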
